A study of Mus musculus with 6 samples.

Results

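The genes described here make up the core of oxidative protein folding in the endoplasmic reticulum (ER): the disulfide isomerases Txndc5, P4hb, Pdia3, Pdia4, Pdia5 and Pdia6, the related proteins Erp29 and Erp44, and the oxidases Ero1l and Ero1lb, now called Ero1a and Ero1b. They are 10 of the 22071 genes named on the array and were found by gene symbol in the platform's probe annotation, where Erp44 stands under its synonym Txndc4. Together they have 165 probe sets, each a group of probes against part of a transcript, and 157 of these had a mean of at least 5.73 on the log2 scale over all arrays and were used. The genes kept 8 to 20 probe sets each, so all 10 received a gene value. The family was chosen from the low Txndc5 values of the comparison below, so the differences of its genes are a description. Standard errors and intervals come from the fit over all genes (limma), which draws the variance of each gene toward that of the others. They are therefore not the spread of that gene between arrays alone. Counts of family genes called by fits over all genes support nothing about the family.

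The cells were primary cortical neurons of C57BL/6 mouse embryos at embryonic day 15, treated early in culture with AraC, an inhibitor of DNA synthesis. On day 5 they received, for 4 hours, a lentivirus with a control short hairpin RNA (shRNA) or one with an shRNA directed at Cugbp1, as Celf1, which encodes an RNA-binding protein, was formerly called. RNA was taken on day 11, after 6 further days, and 3 arrays were made per group from 100 ng of RNA each. Both groups carried a virus and an shRNA, so the control arrays are not untreated cells. The labels name a single Cugbp1 shRNA and do not say whether the 3 samples of a group were separate cultures, so the spread between them may be technical. For replicates 2 and 3 of either group the treatment label mentions Tdp-43 shRNA in place of Cugbp1, and motor neurons appear in the series' design text.

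Disulfide isomerases are ER proteins built from thioredoxin-like domains. They form, break and rearrange the disulfide bonds of secreted and membrane proteins while these fold. ERO1 oxidases pass electrons from reduced isomerases to oxygen and so recharge them. Many of these genes are induced by the unfolded protein response, the programme that enlarges the folding capacity of the ER under load. Neurons depend on this pathway for receptors, channels, adhesion proteins and secreted factors.

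Celf1 itself had 10.80 ± 0.046 (SD, n = 3) in control and 9.44 ± 0.14 (SD, n = 3) in Cugbp1 shRNA arrays, so 39.1% of its control level was left (limma adjusted p = 0.0124). Tardbp, the gene of TDP-43, differed by -0.035 (standard error 0.16, limma adjusted p = 0.961). Between arrays of replicate 1, 2 and 3, Celf1 differed by -1.25, -1.39 and -1.43, and Tardbp by -0.13, -0.15 and 0.18. Array medians over all probe sets lay between 5.74 and 5.78. Of the marker genes chosen for cell types, 11 of 12 pan-neuronal and 9 of 10 cortical glutamatergic ones had a gene value. The motor neuron list mean was 6.79 to 7.10 in control and 6.75 to 7.02 in Cugbp1 shRNA arrays. Of its measured genes Mnx1 had the lowest control mean and Prph the highest. The motor neuron factor Mnx1 was at 6.17 and 6.13, and Prph at 8.06 and 8.20. Among 83 measured markers, with Pdgfra counted in both of its lists, limma called 2, where it called 3.94% of all genes. These were Gad2 of GABAergic neurons, which rose by 0.77 (limma adjusted p = 0.0201), and Pdgfrb of mural cells, which fell by 0.80 (limma adjusted p = 0.0415). Gad2 does not stand for its list, since 6 of the 9 GABAergic markers had a lower mean and the list median was -0.043. Pdgfrb does not stand for its list either, which had a median of -0.017. All 9 measured glutamatergic and 9 of 11 pan-neuronal markers had a lower mean, where 53.5% of all genes had. With the replicate number as a block 2 of the 83 were called higher and 8 lower, where 9.31% and 13.8% of all genes were. The part of these shifts in the results on the family was not tested.

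Txndc5, a disulfide isomerase also known as ERp46, was far lower in the cultures given the Cugbp1 shRNA, and the other 9 genes were not. Its gene value was 9.73, 9.67 and 9.53 in control replicates 1, 2 and 3 and 8.52, 8.43 and 8.32 in Cugbp1 shRNA replicates 1, 2 and 3. All 3 Cugbp1 shRNA arrays lay below all control arrays, with more than a log2 unit between the groups. The means were 9.64 ± 0.10 and 8.42 ± 0.096 (SD, n = 3 each), a difference of -1.22 with a standard error of 0.098. On the linear scale 43.0% of the control level was left, with a 95% interval of 36.7% to 50.4% from the limma fit. The difference was -1.21, -1.24 and -1.20 between arrays of the same replicate number. Among all 16524 genes with a value, Txndc5 stood at rank 9 from the lowest difference. In RNA from a whole culture, fewer cells that express a gene and less of its RNA per cell cannot be told apart.

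**Figure D1:**
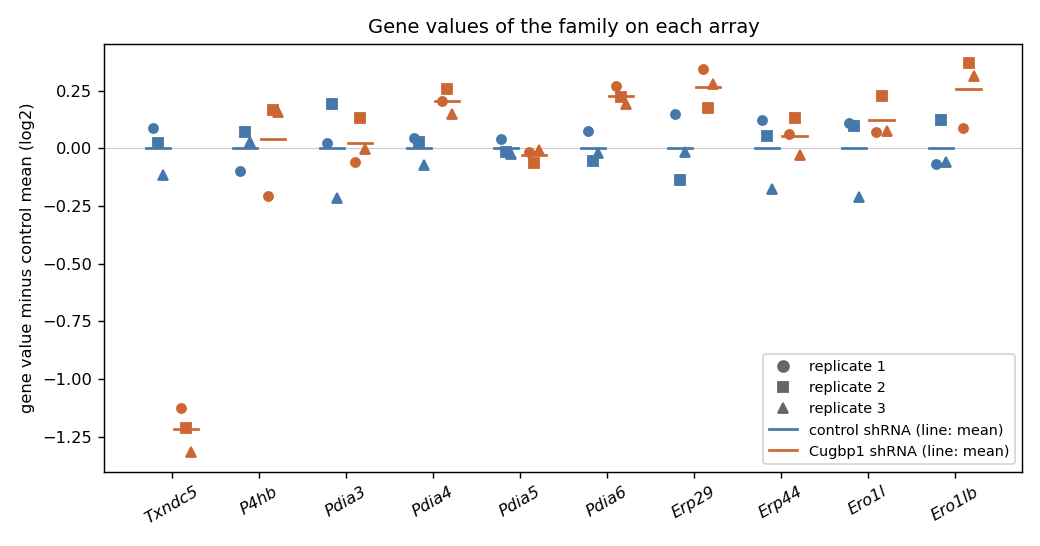
Gene value of each of the 10 genes on every array, minus the mean of its control arrays, in log2 units; symbols are replicates, colours are groups and lines are group means. Txndc5 has differences of -1.24 to -1.20 in the replicate pairs, while the other 9 group differences lie between -0.028 and 0.27.

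The low value was found in nearly all Txndc5 probe sets in use. Of its 16 probe sets used, 14 had all Cugbp1 shRNA arrays below all control arrays, and the differences of these 14 ran from -1.45 to -1.04. By comparison, 10% of all 249557 probe sets of single genes that passed the filter were lower in this way. Probe set 4926394, at the low end, was at 10.54, 10.43 and 10.29 in control and at 9.04, 8.96 and 8.90 in Cugbp1 shRNA arrays. The 14 probe sets had control means from 8.21 to 10.78. A lower mean was seen in 15 of the 16, and in 50.6% of all probe sets used.

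A pair of probe sets in use departed from the rest. Probe set 4482492 was at 8.27, 8.64 and 8.58 in control and at 8.43, 8.53 and 8.74 in Cugbp1 shRNA arrays, and its groups overlapped, with a difference of 0.071. Relative to the rest of Txndc5 it stood 1.23 higher. It was the single probe set of the family among those called by diffSplice, limma's comparison of each probe set with the rest of its gene, which called 0.0822% of 244606 probe sets, 0.0442% as relatively higher and 0.038% as relatively lower. With the replicate block diffSplice called 4 in the family, 2 of them in Txndc5, and 2.37% of all (1.19% higher and 1.18% lower). Outside Txndc5 these were Pdia3 probe set 5164885 and Pdia4 probe set 5333241. The first differed by -0.47, with all Cugbp1 shRNA arrays below all control arrays (diffSplice adjusted p = 0.0489 with the block). The second differed by 0.62 with overlapping groups (diffSplice adjusted p = 0.0484 with the block). A comparison added after seeing the data, the splicing index, subtracts the gene value from each probe set and tests the rest with that probe set's own variance. It gave 1.29 for it and called 0 of 244606 (10466 at an unadjusted p under 0.05). When Cugbp1 shRNA against control was simulated over 244606 probe sets with 200 shifted by 1.5, diffSplice called 172 of these and 817 in genes without a shift, and the splicing index 63 and 1. On the measured values diffSplice called only 201 in all, so the simulated noise differed from that of the arrays. The simulation therefore cannot weigh the call of 4482492. The other Txndc5 probe set of the pair, 5200206, had a mean of 6.09 in control and 5.77 in Cugbp1 shRNA arrays, close to the filter at 5.73, and its groups overlapped. The 1 Txndc5 probe set left out, 4437629, was dimmer still, at 5.70 and 5.58. The positions of these probe sets in the gene were not used here.

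**Figure D2:**
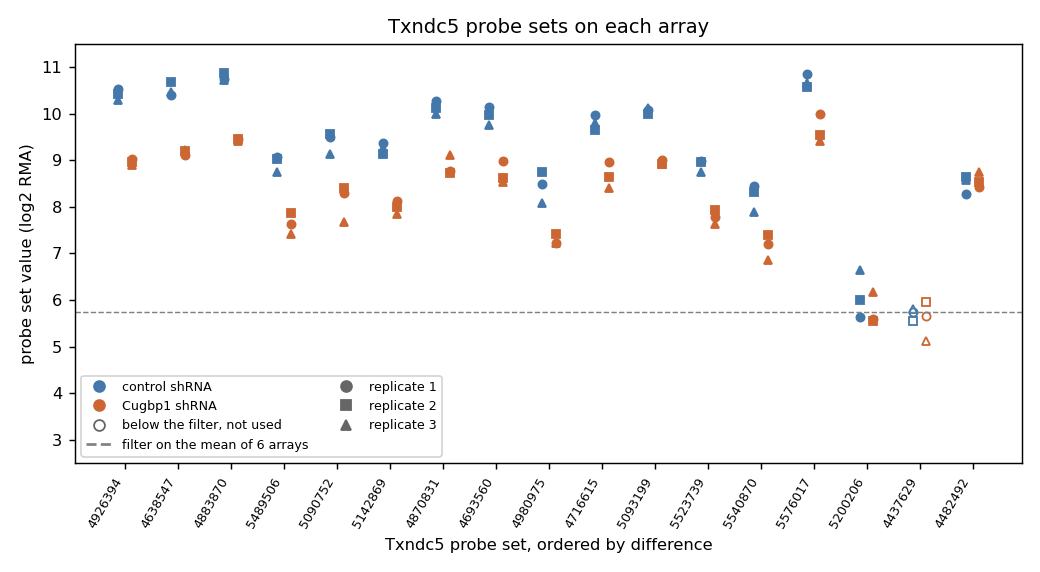
Values of the 17 Txndc5 probe sets on each array in log2 RMA units, ordered by the difference between groups; symbols are replicates, colours are groups, open symbols mark the probe set below the filter and the dashed line is the filter at 5.73. In 14 probe sets the groups do not overlap, while probe set 4482492 has 8.50 and 8.57 as group means.

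The isomerases P4hb, Pdia3 and Pdia5 did not share the low values of Txndc5. P4hb, the prototype protein disulfide isomerase and also the beta subunit of collagen prolyl 4-hydroxylase, was at 10.69, 10.86 and 10.81 in control and 10.58, 10.95 and 10.94 in Cugbp1 shRNA arrays. Its groups overlapped, with the replicate 1 arrays lowest in both, and it differed by 0.040 with a standard error of 0.12. Pdia3, known as ERp57, acts on glycoproteins held by calnexin and calreticulin. It was at 11.64, 11.81 and 11.40 in control and 11.56, 11.75 and 11.62 in Cugbp1 shRNA arrays. Control replicate 3 was the lowest of the 6, the groups overlapped, and the difference was 0.023 with a standard error of 0.12. Pdia5, an isomerase with several thioredoxin domains, was at 7.96, 7.91 and 7.90 in control and 7.91, 7.86 and 7.92 in Cugbp1 shRNA arrays. Its 6 values lay closest together, with a difference of -0.028 and a standard error of 0.081. The 95% intervals of these differences were -0.25 to 0.33 for P4hb, -0.27 to 0.31 for Pdia3 and -0.22 to 0.16 for Pdia5.

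Pdia4 and Pdia6 were slightly higher in the Cugbp1 shRNA arrays. Pdia4, known as ERp72, is an isomerase and a classical target of the unfolded protein response. It was at 10.97, 10.95 and 10.85 in control and 11.13, 11.18 and 11.07 in Cugbp1 shRNA arrays. The lowest Cugbp1 shRNA array lay above the highest control array, and the difference was 0.20 with a standard error of 0.086. Pdia6, known as P5, works with the ER chaperone BiP. It was at 10.17, 10.04 and 10.07 in control and 10.36, 10.31 and 10.28 in Cugbp1 shRNA arrays. Its groups did not overlap either, and the difference was 0.23 with a standard error of 0.085. Of their probe sets, 5 of 14 for Pdia4 and 6 of 18 for Pdia6 had all Cugbp1 shRNA arrays above all control arrays, where 8.04% of all probe sets used did. All 14 Pdia4 probe sets had a higher mean, from 0.035 to 0.62.

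Erp29 and Erp44 are thioredoxin-fold proteins outside the catalytic core. Erp29, which lacks the active-site cysteine pair and acts as a folding factor for secretory proteins, was at 8.71, 8.43 and 8.55 in control and 8.91, 8.74 and 8.84 in Cugbp1 shRNA arrays. Control replicate 1 came close to the lowest Cugbp1 shRNA array, but the groups did not overlap. The difference was 0.27 with a standard error of 0.11, the highest of the family. Erp44 retains ERO1 oxidases and unfinished secretory proteins in the early secretory pathway. It was at 9.45, 9.38 and 9.15 in control and 9.39, 9.46 and 9.30 in Cugbp1 shRNA arrays. These overlapped, with control replicate 3 again lowest, and differed by 0.055 with a standard error of 0.11.

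The oxidases that drive disulfide formation were not lower. Ero1l, the widely expressed form, was at 10.26, 10.25 and 9.94 in control and 10.22, 10.38 and 10.22 in Cugbp1 shRNA arrays. Control replicate 3 was lowest, the other 5 arrays overlapped, and the difference was 0.12 with a standard error of 0.12. Ero1lb, the form known for its role in insulin-producing cells, was at 7.38, 7.57 and 7.39 in control and 7.54, 7.82 and 7.76 in Cugbp1 shRNA arrays. Its groups overlapped only through control replicate 2 and Cugbp1 shRNA replicate 1, and the difference was 0.26 with a standard error of 0.11. Of its 16 probe sets used, 15 had a higher mean.

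**Figure D3:**
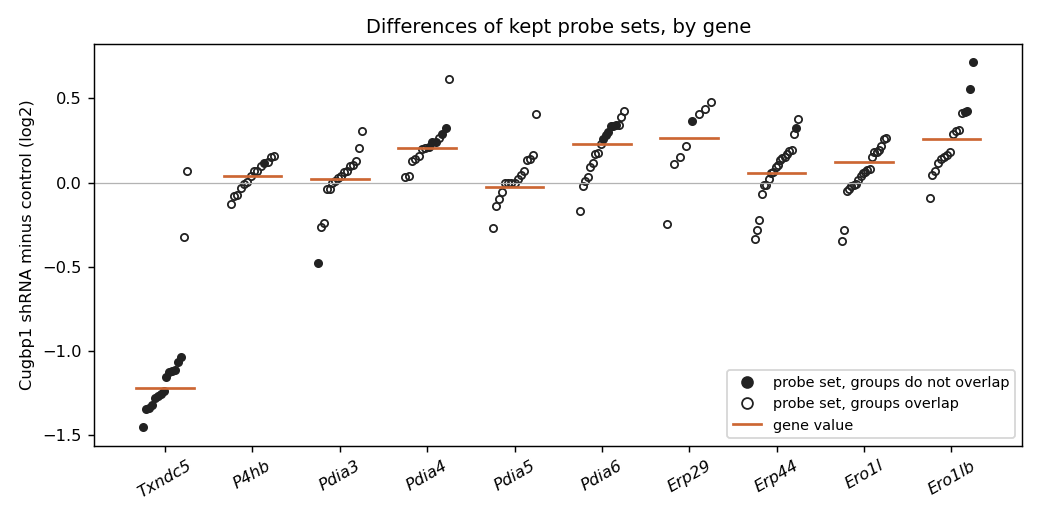
Difference of every probe set used, Cugbp1 shRNA minus control in log2 units, by gene; filled points have groups that do not overlap and the line is the gene value. The 14 filled Txndc5 points lie between -1.45 and -1.04, while the probe sets of the other 9 genes lie between -0.47 and 0.71.

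Read as a family, 8 of the 10 genes had a higher mean and 2 a lower one, where 53.5% of all genes had a lower mean, and the median difference was 0.089 against -0.015 over all genes. In all 3 replicate pairs 4 genes were higher and 1 lower, where 25.9% and 31.6% of all genes were. The groups did not overlap for 4 of the 10, lower for Txndc5 and higher for Pdia4, Pdia6 and Erp29, where 25.2% of all genes had such groups. The limma fit called 3.94% of all genes at an adjusted p under 0.05 (1.1% higher and 2.84% lower) and, within the family, 1 gene, Txndc5. With the replicate number as a block it called 23.2% of all genes and 5 of the 10, Pdia4, Pdia6, Erp29 and Ero1lb as higher in addition to Txndc5. No reading is drawn from these counts, because the same comparison served to choose the genes. At the level of probe sets limma called 0 of 157 in the family and 0 of all 249557, with 20 and 28743 at an unadjusted p under 0.05. With the block it called 14 of the 157, all in Txndc5, against 2.88% of all probe sets (0.784% higher and 2.1% lower).

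The Txndc5 difference was -1.23 to -1.14 when single arrays were left out. The call of Txndc5 was lost without any single array other than control replicate 1, where 0 or 1 of all genes were called. P4hb, Pdia3, Pdia5 and Erp44 changed sign in at least 1 of the 15 alternative settings. The other 6 genes kept theirs in all 15, and Pdia4 ran from 0.14 to 0.27, Pdia6 from 0.17 to 0.30 and Erp29 from 0.20 to 0.38.

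Set directly against its relatives, Txndc5 stood apart on the 3 Cugbp1 shRNA arrays, while centring places the control arrays near 0. Each gene value was centred on its control mean, and the mean of P4hb, Pdia3, Pdia4, Pdia5 and Pdia6 was taken from that of Txndc5. The result was 0.071, -0.018 and -0.052 in control and -1.16, -1.35 and -1.41 in Cugbp1 shRNA arrays, a difference of -1.31 between the groups. The control SD was 0.063 and the Cugbp1 shRNA SD 0.13 (n = 3 each). Against the mean of Ero1l and Ero1lb the values were 0.065, -0.085 and 0.020 in control and -1.20, -1.51 and -1.51 in Cugbp1 shRNA arrays, a difference of -1.41. The gap was larger than the Txndc5 difference alone because the comparison genes were higher by 0.093 and 0.19 on average. With means of probe sets in place of the median polish it was -1.18 and -1.24.

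Promoters of the family were searched for elements of the unfolded protein response, the programme known to induce many of these genes. RefSeq promoter windows of assembly GRCm38.p6 matched 9 of the 10 genes, with 12 windows, and the 250 bases before each start were searched on both strands. The ER stress response element, CCAAT and CCACG with 9 free bases between them, bound by ATF6 with NF-Y, occurred in Pdia6 and Ero1lb. It stood in 0.113% of all 32851 windows. No element searched for matched a window of Pdia4, P4hb, Pdia3, Erp44 or Ero1l, which also had higher means, and Erp29 had 0 windows. A link between element and mean was not tested. The Pdia6 and Ero1lb windows are shown because they match and both genes were at higher means. Matching bases are in capitals, and the match in Ero1lb is on the opposite strand.
Pdia6 (chr12:17266339-17266588, plus strand): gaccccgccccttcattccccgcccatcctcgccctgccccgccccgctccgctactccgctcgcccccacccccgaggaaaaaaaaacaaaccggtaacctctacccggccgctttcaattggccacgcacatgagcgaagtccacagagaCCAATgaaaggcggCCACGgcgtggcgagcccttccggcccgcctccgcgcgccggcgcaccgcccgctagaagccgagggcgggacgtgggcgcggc
Ero1lb (chr13:12565633-12565882, plus strand): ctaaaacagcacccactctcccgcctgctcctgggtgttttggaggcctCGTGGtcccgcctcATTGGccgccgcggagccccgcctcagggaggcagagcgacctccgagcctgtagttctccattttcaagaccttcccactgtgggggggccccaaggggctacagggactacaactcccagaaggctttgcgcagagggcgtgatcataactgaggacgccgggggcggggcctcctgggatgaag
The unfolded protein response element TGACGTGG, whose last 5 bases are the complement of the CCACG in the other elements, occurred in 1 of 3 Txndc5 windows and in 0.563% of all windows. The match and its flanks are shown because Txndc5 was the gene at low values.
Txndc5 (chr13:38528034-38528063, minus strand): ggcctcgccgcTGACGTGGcgctagccgcc
A related element, ATTGG and CCACG with 1 free base between them, was in 0 of the 12 windows and in 0.0304% of all. A match describes letters in a window and does not show that a factor binds there.

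The genes whose profile over the 6 arrays was nearest to that of Txndc5 came from outside the family. Likeness was the root mean square difference between profiles centred on their own mean, which was 0.63 for the median gene. St6gal2, a sialyltransferase, was nearest at 0.080, with 11.71, 11.68 and 11.43 in control and 10.67, 10.51 and 10.29 in Cugbp1 shRNA arrays. Celf1, the target of the shRNA, came next, at 0.084. Smyd5, a SET domain protein, the fatty acid binding protein gene Fabp3 and the exchange factor gene Mcf2 stood at 0.087, 0.090 and 0.091, and Hcn3, a pacemaker channel gene, at 0.11. The 9 relatives of Txndc5 lay between 0.60 and 0.75. All but Pdia5 were farther from it than the median gene, though Pdia3 hardly so, at 0.6323 against 0.6318. Pdia4, Pdia6, Erp29 and Ero1lb were among the more distant genes, at ranks 13435 to 14852 of 16523. These distances largely restate the group differences, from which the family was chosen, so no separate reading is drawn from them.

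The wider folding machinery was called about as often as other genes with the replicate block, and 2 of its genes were called without it. Over 9 lists of ER folding and thiol chemistry, 107 of 110 genes had a value, limma called 2, where it called 3.94% of all genes, and the median difference was 0.034 against -0.015 for all genes. With the replicate block 28 of the 107 were called, 17 higher and 11 lower, where 23.2% of all genes were called, 9.31% higher and 13.8% lower. The called genes were Manf and Vkorc1l1. Manf, a secreted ER stress factor and neurotrophic protein, was at 9.69, 9.85 and 9.66 in control and 10.11, 10.31 and 10.31 in Cugbp1 shRNA arrays. It rose by 0.51 (standard error 0.10, limma adjusted p = 0.0419), and the adjusted p over all alternatives ran from 0.00258 to 0.221. Vkorc1l1, an ER vitamin K epoxide reductase that can oxidise disulfide isomerases, was at 10.42, 10.36 and 10.33 in control and 9.89, 9.74 and 9.92 in Cugbp1 shRNA arrays. It fell by 0.52 (standard error 0.091, limma adjusted p = 0.0308), with a range over alternatives of 0.00132 to 0.161. In both genes the groups did not overlap. Both calls were lost when any 1 of the 6 arrays was left out and in replicates 2 and 3 alone (adjusted p = 0.0648 for Manf and 0.0548 for Vkorc1l1), and Manf also missed with median centring (adjusted p = 0.0505).

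ER chaperones had 14 of 18 genes with a higher mean and a median difference of 0.16, the highest of the lists, where 53.5% of all genes had a lower mean. Manf was the single gene of this list past the limma threshold, and 3 of 18 had an unadjusted p under 0.05, as did 3105 of all 16524 genes. With the replicate block 4 were called higher, where 9.31% of all genes were, with Sdf2l1, a partner of ER chaperones, at 0.46 (adjusted p = 0.00613) among them. In the limma fit without it, Sdf2l1 had an adjusted p = 0.0738. Among 14 other thioredoxin-fold ER proteins limma called 0 (4 at an unadjusted p under 0.05), where it called 3.94% of all genes. Txndc12, a small ER thioredoxin, was at 0.36 (adjusted p = 0.112, and 0.0254 with the block), and the membrane-bound Tmx1 at 0.26 (adjusted p = 0.154, and 0.0378 with the block). Of 11 oxidation and reduction partners 6 had a lower mean, with Vkorc1l1 as the called gene, while its paralog Vkorc1 was at 0.29 (adjusted p = 0.225, and 0.0191 with the block).

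The regulators of the unfolded protein response went both ways, 7 higher and 7 lower, and limma called 0 of the 14 (4 at an unadjusted p under 0.05). Of all genes limma called 3.94%, or 23.2% with the block, and 3105 of 16524 had an unadjusted p under 0.05. No reading is drawn from 0 calls in a list this short. Creb3l1, an ER-tethered transcription factor of secretory cells, was at -0.63 (adjusted p = 0.108, and 0.0156 with the block) and Mbtps2, the protease that releases ATF6 and its relatives, at -0.25 (adjusted p = 0.158, and 0.0258 with the block). Among 7 ER prolyl isomerases limma called 0 (2 at an unadjusted p under 0.05), with Ppic, a cyclophilin, at 0.50 (adjusted p = 0.0574, and 0.00467 with the block) and Fkbp14 at -0.32 (adjusted p = 0.199, and 0.0164 with the block). Of 13 partners of P4HB and enzymes of collagen modification limma called 0 (2 at an unadjusted p under 0.05). P3h4 was at -0.32 (adjusted p = 0.170, and 0.0182 with the block) and P4ha2, a catalytic subunit that pairs with P4HB, at -0.24 (adjusted p = 0.248, and 0.0662 with the block).

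Limma called 0 of 11 genes of ER-associated degradation and 0 of 3 ER retrieval receptors, and 0 of each had an unadjusted p under 0.05. Over all genes it called 3.94%, and 3105 of 16524 had an unadjusted p under 0.05. Among the degradation genes, the smallest p values belonged to Os9, a lectin of degradation, and Herpud1, a stress-induced adaptor. Os9 was at 0.19 (adjusted p = 0.295, and 0.0600 with the block) and Herpud1 at 0.44 (adjusted p = 0.378, and 0.0533 with the block). Kdelr3 was at -0.29 (adjusted p = 0.421, and 0.0894 with the block) and Kdelr1 at -0.13 (adjusted p = 0.489, and 0.155 with the block). Of 16 genes of the thioredoxin and glutaredoxin system outside the ER, 8 were higher and 8 lower and limma called 0 (6 at an unadjusted p under 0.05). The mitochondrial thioredoxin Txn2 was at 0.37 (adjusted p = 0.0858, and 0.0151 with the block) and the thioredoxin reductase Txnrd3 at -0.35 (adjusted p = 0.106, and 0.0117 with the block).

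**Figure D4:**
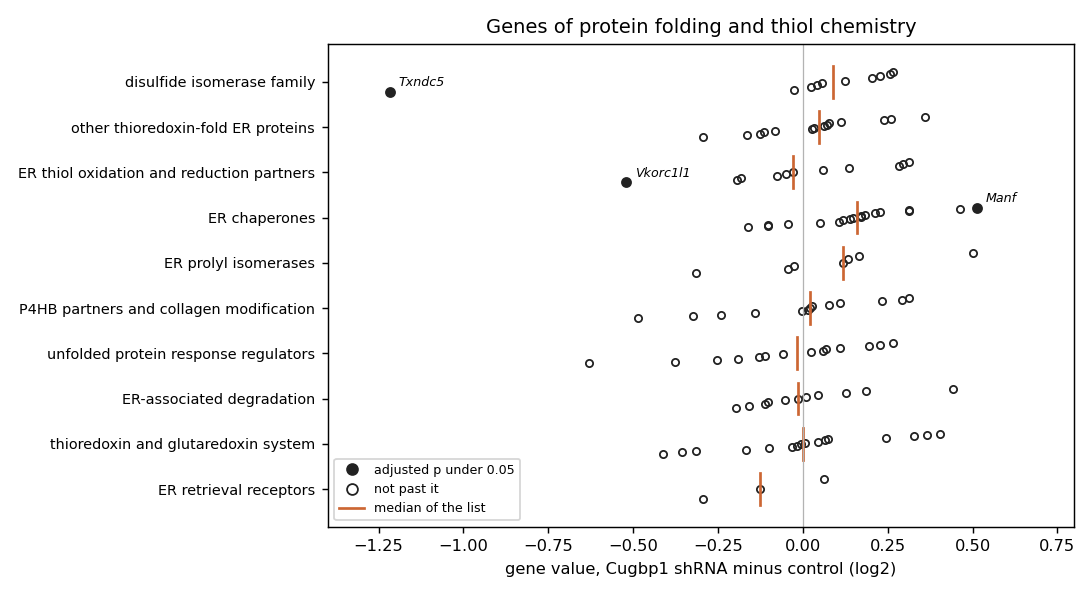
Difference of each measured gene, Cugbp1 shRNA minus control in log2 units, in the disulfide isomerase family and 9 lists of folding and thiol chemistry; filled points have a limma adjusted p under 0.05 and bars are list medians. Txndc5 lies at -1.22, while every gene of the lists lies between -0.63 and 0.51.

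Markers of secretory cell types that a cortical culture can hold gave these values beside the Txndc5 result. The endothelial and mural list, 9 of 10 genes measured, had array means of 6.61 to 7.04 in control and 6.60 to 6.85 in Cugbp1 shRNA arrays, with 3 genes higher and 6 lower. Its called gene Pdgfrb was at 8.42, 8.67 and 8.18 in control and 7.79, 7.70 and 7.37 in Cugbp1 shRNA arrays. The other mural genes of this list, Rgs5, Abcc9 and Kcnj8, differed by 0.056, -0.017 and -0.19. The fibroblast and meninges list, 9 of 10 measured, had array means of 8.59 to 9.005 and 8.59 to 8.95, and the collagen gene Col1a1 differed by -0.014. The ranges of both lists overlapped between the groups. The part of other cell types in the Txndc5 result was not tested.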

How the data were processed

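The authors deposited log2 RMA values, 1 for every exon probe set on each array, made with Expression Console according to the labels' protocols; the processing notes name mm9, and the software version is not given in the sources used here. RMA removes differences in total signal between arrays. Values covered 1195555 probe sets, of which 316997 carried 1 gene symbol, 6571 several and 871987 were not listed. Older symbols were updated through RefSeq (GRCm38.p6, names only). Probe sets with a mean of at least the median of all were kept, and genes with 3 or more received a value by Tukey median polish. Precision rests on 3 arrays per group, since arrays give no counts.

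Differences were fitted with limma 3.58.1 in R 4.3.3 (two-sided, no further term) over 16524 genes, with Benjamini-Hochberg adjustment. Deviations from group means correlated between same-numbered arrays with r of 0.763, 0.504 and 0.715 (genes as points, no test). Replicate 1 carries no number and was taken as such by exclusion. Replicate block, normalization, filter, summary, variance, array weight and leave-one-out alternatives were run. The genes, lists and tests were chosen with earlier results of these data known. Genes named are the family, Celf1, called list genes or the 2 with smallest p, the 6 nearest profiles, and probe sets at the extremes or called. Vkorc1, Sdf2l1, Tardbp, Mnx1, Prph, Col1a1, Gad2, Pdgfrb, Rgs5, Abcc9, Kcnj8 and probe sets 5200206 and 4437629 were added after their values were seen. The steps were tested on simulated data. Files were read with the R package data.table (version 1.17.8) and plotted with matplotlib 3.10.9.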

Additional observations from a re-analysis of the deposited data

How the results depend on the processing

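All 15 alternatives kept Txndc5 lower. Over 13 alternatives its difference from the 5 isomerases stayed between -1.38 and -1.18 and from the Ero1 oxidases between -1.50 and -1.24. Means of probe sets gave the values nearest to 0, -1.18 and -1.24. Leaving out single arrays gave -1.34 to -1.22 and -1.46 to -1.31. The number of calls depended far more on the setting. The replicate block, where same-numbered arrays deviate together, called 3827 genes in place of 651, 28 list genes in place of 2, 5 family genes in place of 1, 14 family probe sets in place of 0, and 4 relative probe set levels in place of 1. Array weights called 4226 genes, 36 list genes and 4 family genes. Trend and robust variances called 1089 genes and 5 list genes, the filter at the 75th percentile, with fewer genes tested, 1039 and 6, and replicates 2 and 3 alone 4 list genes. Median centring left 1 list gene. Without single arrays the counts were 0 to 271 genes, 0 to 2 list genes, 0 to 1 family genes, 0 to 0 family probe sets and 1 to 2 relative levels (limma, 2008 to 3247 genes at an unadjusted p under 0.05). Without a filter 2 relative levels were called, and by the splicing index, added after seeing the data, 0 with or without the replicate block (27728 and 10466 of all probe sets at an unadjusted p under 0.05). The cause of these shifts was not tested. Probe sets near the filter at 5.73, the median of all, are dim, and how far they stand above background was not tested.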
